A study of Caenorhabditis elegans with 2 samples.

Results

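The genes described here make the spliced leader RNAs of the nematode Caenorhabditis elegans. They were selected by name, as all annotated genes whose names begin with sls-1. or sls-2., and gave 30 of the 46890 annotated nuclear genes: 12 SL1 genes and 18 SL2 genes. The measurement was ChIP-seq of ZTF-11, a Myt1 family zinc-finger protein known from neurogenesis, in which DNA bound by the tagged protein is recovered and sequenced. Worms of strain OP236 (unc-119(ed3) III; wgIs236) carried a stably expressed transgene that adds GFP-FLAG to the C-terminus of ZTF-11. They were L1 larvae of mixed sex, taken as whole organisms, so cells with and without the tagged protein were sampled together. The labels gave 2 biological replicates of 1 group, each with 1 technical replicate, and no second condition, so every value below is a description of this 1 group. The deposited lists of regions are one for each replicate, one for the reads of both replicates together (the pooled list), and a thresholded list of 88 peaks (the consensus), which was derived from the other lists.

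Many nematode mRNAs do not keep the 5′ end with which they were transcribed. In trans-splicing, a short leader carried at the 5′ end of a separate small RNA is joined to the pre-mRNA in place of its own first bases, and the leader brings its cap along. SL1 is the leader given to most trans-spliced genes, including the first genes of operons, whereas SL2 and its variants are known for the downstream genes of operons. Both small RNAs have the leader at their 5′ end, followed at once by a splice donor, and both are bound by Sm proteins. They are transcribed from small genes of their own with control sequence just before the RNA. The SL1 genes are known to lie in a tandem array with the 5S rRNA genes.

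The RNAs and the sequence before them are shown first because copies that resemble one another behaved differently in the lists. Each RNA is read 5′ to 3′ from the WBcel235 genome (ce11), and capitals mark the leader, taken as the bases up to the first AG that is followed by GT. The annotated SL1 RNA starts with one base before the G that begins the known leader. The SL1 gene shown is the first copy of sls-1.10 on the array (chrV:17118154-17118251, plus strand), and all 10 full-length SL1 genes share this RNA. The SL2 genes are sls-2.1 (chrII:5844865-5844974, plus strand), sls-2.2 (chrII:5543598-5543707, plus strand), sls-2.3 (chrII:5544164-5544273, minus strand), sls-2.13 (chrIV:5063422-5063531, minus strand) and sls-2.16 (chrIII:7141391-7141499, plus strand).
sls-1.10: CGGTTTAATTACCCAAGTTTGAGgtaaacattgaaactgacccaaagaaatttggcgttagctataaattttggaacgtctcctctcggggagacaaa
sls-2.1: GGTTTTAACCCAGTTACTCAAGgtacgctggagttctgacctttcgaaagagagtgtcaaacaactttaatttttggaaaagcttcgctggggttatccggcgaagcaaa
sls-2.2: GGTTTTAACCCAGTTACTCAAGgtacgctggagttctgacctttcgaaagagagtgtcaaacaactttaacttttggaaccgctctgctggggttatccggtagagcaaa
sls-2.3: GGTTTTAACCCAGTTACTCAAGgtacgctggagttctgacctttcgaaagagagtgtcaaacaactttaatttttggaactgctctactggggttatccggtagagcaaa
sls-2.13: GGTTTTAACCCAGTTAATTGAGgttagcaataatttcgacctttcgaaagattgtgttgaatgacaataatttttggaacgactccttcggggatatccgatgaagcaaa
sls-2.16: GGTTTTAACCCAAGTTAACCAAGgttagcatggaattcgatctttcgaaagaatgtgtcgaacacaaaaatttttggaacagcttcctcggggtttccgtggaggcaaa

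The SL2 RNAs fall into groups by leader. The leader of sls-2.1, sls-2.2 and sls-2.3 is also that of sls-2.4, and these 4 RNAs are 90.9% to 97.3% identical over their length. The genes sls-2.5, sls-2.6 and sls-2.7 share another leader with an identity of 76.3% to 87.7%. The leader is also shared within the pair sls-2.10 and sls-2.11 and within the pair sls-2.12 and sls-2.13. The other 7 SL2 genes each have a leader of their own. Over all pairs of SL2 RNAs the identity was 64.9% to 99.1% with a median of 75.0%, and between the full-length SL1 RNA and the SL2 RNAs it was 55.9% to 63.2%.

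The sequence upstream of the RNA set some of the same genes apart. The lines below give bases 80 to 21 before the RNA, on the RNA's strand, for the SL2 genes of the commonest leader outside of sls-2.4, for sls-2.16 and for the SL1 gene shown above. Capitals mark the longest word shared by the genes of the commonest SL2 leader, TCGCTTGCCTCGAAA, and, in sls-2.16, an 8-base word found in 6 of 18 SL2 genes, AACCCGCG, than which no 8-base word was in more of them. Both words were chosen after the sequences were seen.
sls-2.1 (chrII:5844785-5844844): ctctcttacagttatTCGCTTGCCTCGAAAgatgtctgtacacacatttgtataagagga
sls-2.2 (chrII:5543518-5543577): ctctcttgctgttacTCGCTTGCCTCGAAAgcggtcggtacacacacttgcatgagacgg
sls-2.3 (chrII:5544294-5544353): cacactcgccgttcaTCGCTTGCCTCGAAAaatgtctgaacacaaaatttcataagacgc
sls-2.16 (chrIII:7141311-7141370): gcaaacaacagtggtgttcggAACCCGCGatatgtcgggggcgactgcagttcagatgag
sls-1.10 (chrV:17118074-17118133): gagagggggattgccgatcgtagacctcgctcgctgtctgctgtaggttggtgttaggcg

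The 15-base word TCGCTTGCCTCGAAA started 65 bases before the RNA in 4 of 18 SL2 genes, which were sls-2.1 to sls-2.4. On either strand it was in the 100 bases before none of the 12 SL1 genes and 0 of 46860 other annotated genes, and it occurred 4 times in the genome. The 8-base word AACCCGCG started 59 bases before the RNA in 6 of 18 SL2 genes, namely sls-2.5, sls-2.7, sls-2.14, sls-2.15, sls-2.16 and sls-2.18. The exact word was in none of the SL1 windows and, on either strand, in 0.107% of the 46860 other genes. It does not set those SL2 genes fully apart, since at the same position sls-2.12, sls-2.13 and sls-2.17 differed from it in the last base alone. A match of letters describes the sequence only.

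The pooled list and both replicate lists held 30000 regions each, background included, and were read by the summit, the position that the authors' file gives as the top of a region. The median width of a region was 350 bp in every list. That is longer than any spliced leader RNA, so a summit does not place binding within one. A gene was counted when a summit lay within 300 bp of it. The signal is the authors' value per region, with no scaling between lists stated, so ranks are compared within a list. Signal in the pooled list ran from 12.3 through a median of 16.1 to 127, and its 1000th nuclear region stood at 27.4. In replicate 1 it ran from 7.42 to 62.6 and in replicate 2 from 6.94 to 64.1. No read counts were in the lists, so depth was unknown, and a gene without a region is one for which none was listed, not one where binding was measured as 0. Because the lists chose what is described, no p-value is given, and the exact 95% binomial intervals cover the counting of genes only.

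SL1 and SL2 genes differed in the lists. A pooled region was listed at 9 of 18 SL2 genes and at 0 of 12 SL1 genes, against 39.8% of all other annotated genes. The share of SL2 genes was 50%, with an interval of 26.0% to 74.0%. The interval for the SL1 genes reached 26.5%, but it counts as separate 12 copies that lie in 1 array and share nearly 1 sequence. Replicate 1 listed 11 SL2 genes (61.1%) and no SL1 gene, against 39.8% of other genes. Replicate 2 listed 8 SL2 genes (44.4%) and no SL1 gene, against 39.1% of other genes. Both replicates listed 8 SL2 genes, where 22.4% of other genes were listed in both. The background lay inside the interval of the SL2 share in each of these counts, at 35.7% to 82.7% in replicate 1 and 21.5% to 69.2% in replicate 2 and in both. That background holds genes of every length, and a longer gene covers more sequence. For genes of 60 to 150 bp the share was 21.5% pooled, 20.5% in replicate 1, 23.8% in replicate 2 and 7.70% in both. Of these, the replicate 2 share alone lay inside the SL2 interval, and the others lay below it. The intervals take genes as independent, which SL2 genes alike in sequence are not, and sls-2.2 and sls-2.3 share a replicate 2 region. A place inside or below an interval is therefore no test, and the differences were not tested. Of the 1000 highest pooled regions, a summit lay at 4 of 18 SL2 genes (22.2%, interval 6.41% to 47.6%), against 2.42% of other genes. Among the 88 consensus peaks it was 2 of 18, sls-2.1 and sls-2.4, against 0.23% of other genes.

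**Figure D1:**
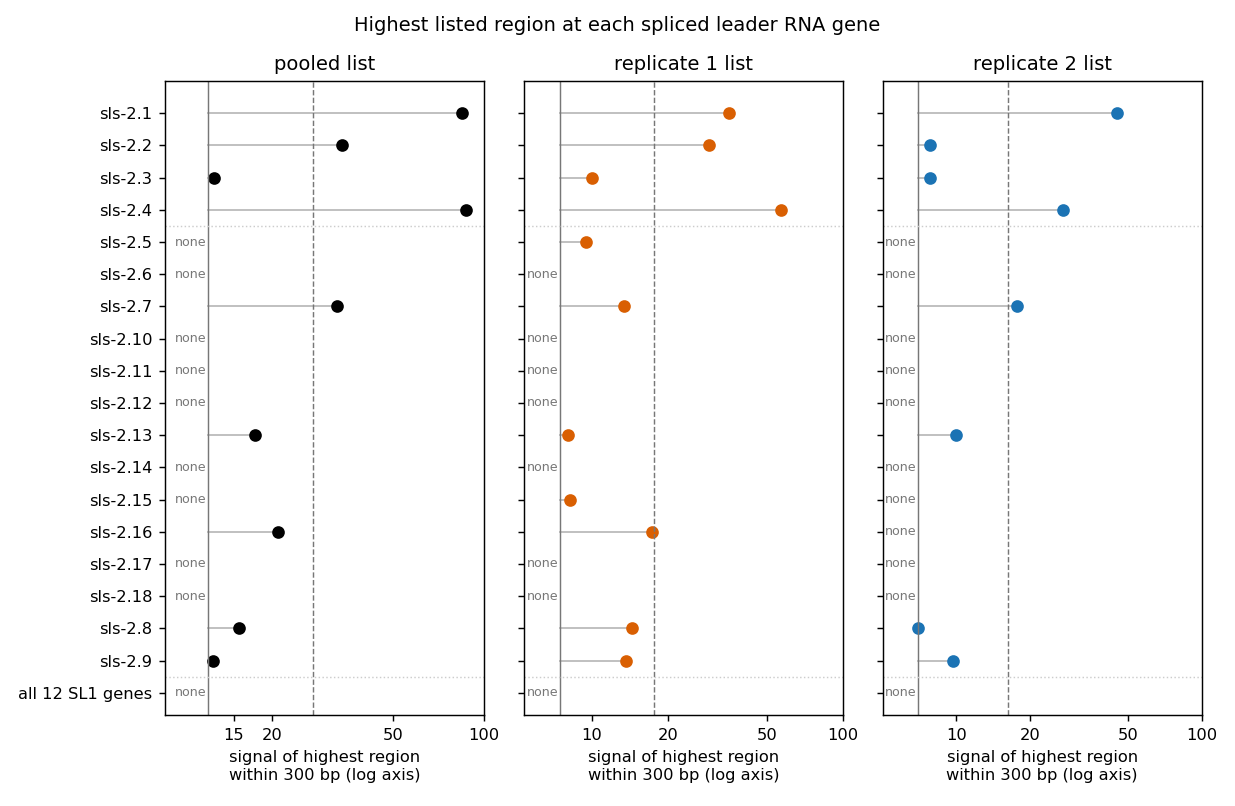
Signal (log axis) of the highest region with a summit within 300 bp of each SL2 gene, 1 panel per list. Genes are ordered by leader, with the 4 genes of the commonest leader above the upper dotted line and the SL1 genes in the last row. The solid vertical line is the lowest signal in the list, the dashed line its 1000th nuclear region, and "none" means that no region was listed. The genes sls-2.1 and sls-2.4 stand highest in every panel, and no SL1 gene has a region.

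The strongest region at any spliced leader gene was at sls-2.4, on chromosome I (4172206 to 4172315, plus strand). Its pooled signal was 87.4, with 56.8 in replicate 1 and 27.2 in replicate 2, and these were ranks 6, 2 and 50. The summits lay 21, 32 and 20 bp after the RNA 5′ end, and the replicate summits were 12 bp apart. A further region overlapped the first in each list, with a pooled signal of 30.4 and its summit 224 bp after the 5′ end. The nearest start of a protein-coding gene was that of egg-5, 638 bp from the pooled summit.

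The gene sls-2.1, on chromosome II, came next in the pooled list. Its pooled signal was 84.3, with 35.1 in replicate 1 and 45.2 in replicate 2, at ranks 7, 17 and 6. The pooled and replicate 2 summits were 48 and 46 bp after the RNA 5′ end, and the replicate 1 summit was 2 bp before it. As at sls-2.4, each list held a further region downstream, with a pooled signal of 17.5 and a summit 256 bp after the 5′ end. The nearest coding start, of ZK1248.17, was 628 bp from the pooled summit. Both replicates thus placed sls-2.1 and sls-2.4 among their 50 highest nuclear regions, and at no other spliced leader gene did they do so.

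The genes sls-2.2 and sls-2.7 were among the 1000 highest pooled regions but in 1 replicate each. For sls-2.2 the signal was 33.9 in the pooled list (rank 233) and 29.3 in replicate 1 (rank 35), with summits 43 and 47 bp before the RNA. Replicate 2 listed a region of signal 7.78 at rank 23342, and its summit was 388 bp away from that of replicate 1. For sls-2.7 the pooled signal was 32.7 (rank 287), with 13.4 in replicate 1 (rank 4649) and 17.6 in replicate 2 (rank 571). Its summits were 67, 69 and 7 bp after the 5′ end, so the replicates placed it within 62 bp of each other. The start of the coding gene W06D4.3 was 212 bp from the pooled summit of sls-2.7, nearer than any coding start to the summits of sls-2.1, sls-2.2 and sls-2.4.

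Lower regions made up the rest. At sls-2.16 the signal was 20.9 in the pooled list (rank 5049) and 17.4 in replicate 1 (rank 1078), and in replicate 2 the nearest summit was 499 bp away. At sls-2.13 it was 17.6 pooled, 7.98 in replicate 1 and 9.93 in replicate 2, with replicate summits 43 bp apart. At sls-2.8 it was 15.6, 14.4 and 6.99, with replicate summits 335 bp apart. The region at sls-2.5 (9.49) and that at sls-2.15 (8.16) were in the replicate 1 list alone, and both signals lay below the median of 9.89 in that list. No region was listed in any list at sls-2.6, sls-2.10, sls-2.11, sls-2.12, sls-2.14, sls-2.17 and sls-2.18. Over the 9 SL2 genes with a pooled region the highest signal was 12.8 to 87.4 with a median of 20.9.

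Some counts turned on the distance of 300 bp. Just inside it in the pooled list was sls-2.9, whose region of signal 12.8 lay 226 bp from the gene, and replicate 2 had a region of 9.72 nearby, with summits 334 and 341 bp after the RNA 5′ end. The replicate 1 region there, of 13.7, was a different one, with its summit 94 bp before the RNA and 435 bp from that of replicate 2. Also just inside was sls-2.3, whose region of signal 12.9 lay 258 bp away. The nearest outside it in the pooled list were sls-2.6 at 567 bp and sls-2.15 at 587 bp, so at 500 bp the pooled count was still 9. In replicate 1, sls-2.15 was just inside at 260 bp, and in replicate 2, sls-2.5 was just outside at 339 bp. The replicate 2 region of signal 7.78 was counted for sls-2.2 and also for sls-2.3, since these genes are 457 bp apart. Of the 8 genes listed in both replicates, 4 (sls-2.1, sls-2.4, sls-2.7 and sls-2.13) had their highest summits within 200 bp of each other. Counted by the RNA 5′ end in place of the whole gene, 8 of 18 SL2 genes had a pooled region, against 22.3% of other genes.

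**Figure D2:**
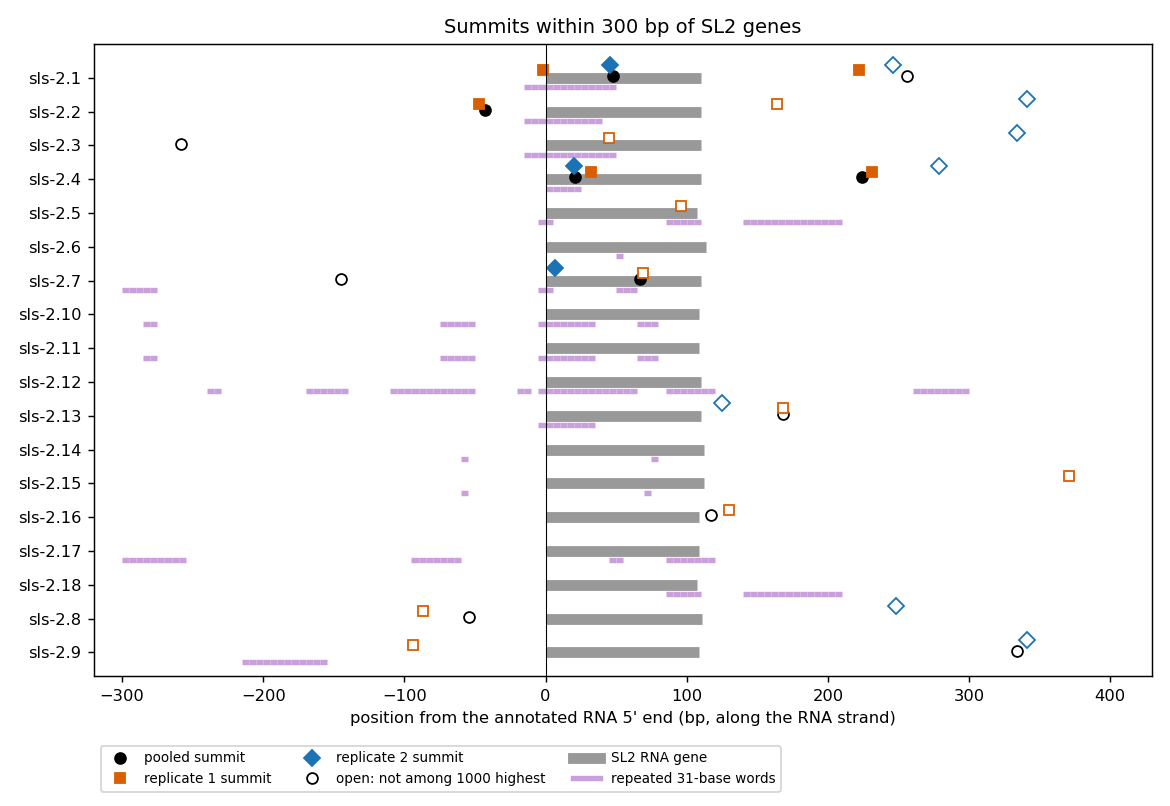
Summits within 300 bp of each SL2 gene, as distance in bp from the annotated RNA 5′ end along the RNA strand, for the pooled list (circles), replicate 1 (squares) and replicate 2 (diamonds). Filled symbols are among the 1000 highest regions of their list, grey bars are the genes, and violet bars mark 31-base words that occur more than once in the genome. Pooled summits of sls-2.1, sls-2.4 and sls-2.7 lie inside the gene at 48, 21 and 67 bp.

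Genes alike in sequence could rank far apart. All 4 genes of the commonest leader had a pooled region, and 3 of them were among the 1000 highest. Of the other 14 SL2 genes, 5 had a pooled region and 1 was among the 1000 highest. The shares over all other annotated genes were 39.8% for a pooled region and 2.42% for the 1000 highest, and the leader groups were not tested. Among the 4 genes of the commonest leader, however, sls-2.3 carried the same leader and the same 15-base upstream word as sls-2.1 and sls-2.4. Its pooled region ranked 27090, with the summit 258 bp before the RNA. In replicate 1 the region at sls-2.3 had a signal of 10.02 at rank 14422, with the summit 45 bp after the 5′ end. Among the genes with the shared leader of sls-2.7, sls-2.5 was listed in replicate 1 alone and sls-2.6 in no list. The nearly identical sls-2.10 and sls-2.11 were both without a region, and of the pair sls-2.12 and sls-2.13, with RNAs 96.4% identical, sls-2.13 alone was listed.

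The word AAGTT, which Myt1 family proteins are known to bind, was searched on both strands. It lay within 50 bp of 3 of the 9 highest pooled summits at SL2 genes, those of sls-2.1, sls-2.3 and sls-2.16, against 38.4% of all 30000 pooled summits. It was in the RNA of 5 of 18 SL2 genes and of 10 of 12 SL1 genes, where it is part of the leader shown above. In the 100 bases before the RNA it was in 1 of 18 SL2 genes (sls-2.13) and in no SL1 gene, against 38.4% of other annotated genes. The strongest region, at sls-2.4, had no AAGTT within 50 bp of its highest summit in any list.

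The SL1 genes had no listed region at all. They lie on chromosome V between 17118154 and 17132107, a stretch of 13954 bp, with 11 genes on the minus strand and 1 on the plus strand and a median spacing of 976 bp between starts. The annotation gives one name to several of them: 10 copies named sls-1.10 are 98 bp long with 1 distinct RNA sequence, and 2 copies named sls-1.1 are 68 bp long and lack the first 30 bases, the leader among them. No summit of the pooled list, replicate 1 or replicate 2 lay inside the array. The nearest summits to single SL1 genes were 5320 to 16272 bp away for pooled regions, 25465 to 37399 bp in replicate 1 and 3604 to 14556 bp in replicate 2. The distance between the summits that flank the array was 32717 bp in the pooled list, where the median distance between neighbouring summits was 2151 bp and 30 of 29994 were longer. In replicate 1 it was 74940 bp, with 2 of 29971 longer, and in replicate 2 it was 29352 bp, with 39 of 29994 longer.

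The array is repetitive. Of the 31-base words that start in the array, 93.0% occur more than once in the genome, on either strand, against 8.83% in the 20 kb to its left and 13.3% in the 20 kb to its right. Within the interval that the pooled summits leave empty, the share was 29.5% in the 5320 bp left of the array and 17.2% in the 13444 bp right of it. Around single SL1 genes with 300 bp on either side it was 81.4% to 100%, and around SL2 genes 0% to 37.4% with a median of 8.39%. The sources used do not say how reads that match several places were treated, and the part of repetition in the empty lists at SL1 genes was not tested. The 5S rRNA genes, 14 of 16 of which lie in or within 20 kb of the array, had a region at 0 of 16 genes in the pooled list and in replicate 1. In replicate 2 it was 1 of 16, and that gene is not among the 14. The 12 SL1 genes share 1 locus and nearly 1 sequence and are not 12 independent observations.

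**Figure D3:**
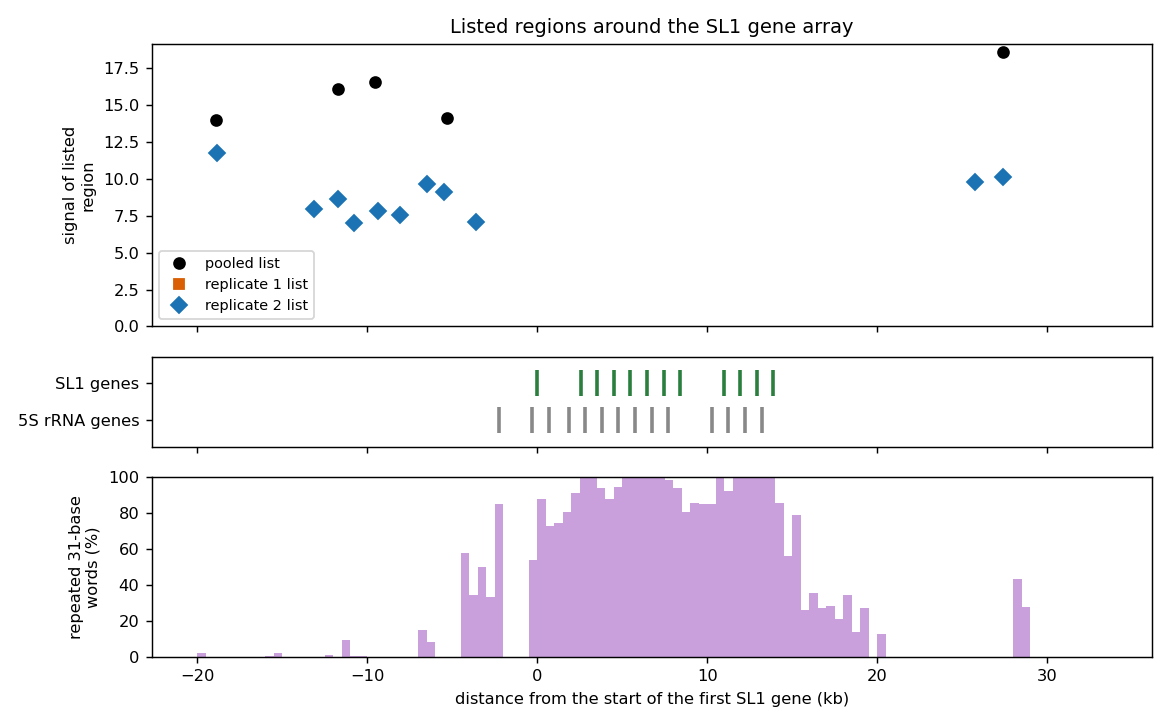
Listed regions around the SL1 array by distance in kb from the start of the first SL1 gene. The upper panel gives the signal of each region in the pooled list (circles) and replicate 2 (diamonds), with no replicate 1 region in the range drawn; the middle panel the SL1 and 5S rRNA genes, and the lower panel the percentage of 31-base words that occur more than once in the genome, in bins. No summit lies in the array, where 93.0% of the words are repeated.

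SL2 genes with and without a region were less far apart in repetition than SL1 and SL2 genes. The 9 SL2 genes with a pooled region had 0% to 9.85% repeated words with 300 bp on either side, with a median of 6.62%, and the 9 without one had 1.32% to 37.4%, with a median of 13.1%. Inside the gene itself the medians were 26.3% and 9.52%. The gene sls-2.1, at pooled rank 7, had 61.3% repeated words in the gene, as had sls-2.3 at rank 27090, and sls-2.4 at rank 6 had 26.3%. Position also differed between the groups: 1 of 9 SL2 genes with a pooled region lay inside a protein-coding gene, against 6 of 9 without. That one was sls-2.16, in glr-2, a glutamate receptor gene that also holds sls-2.5 and sls-2.18. As sls-2.14 and sls-2.15 likewise share W09D6.5, the 6 are not separate cases. Of these 6, sls-2.5 and sls-2.15 had a replicate 1 region. The share of listed genes among all genes inside coding genes was not counted. No SL2 gene overlapped a coding exon. A coding start lay within 500 bp of the RNA 5′ end at 2 of the 9 genes with a pooled region and 1 of the 9 without. From the highest pooled summit, the nearest coding start was 333 bp away at sls-2.3 (ins-13), 212 bp at sls-2.7 and 247 bp at sls-2.8 (tim-1). At the other genes with a pooled region it was more than 500 bp away. Neither repetition nor position was tested as a cause of the regions.

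Other small RNA genes give a scale for these counts. A pooled region was listed at 27 of 99 other snRNA genes (27.3%), 179 of 612 tRNA genes (29.2%), 123 of 346 snoRNA genes (35.5%) and 1405 of 6543 genes of 60 to 150 bp (21.5%). All 4 shares lay below the 50% of SL2 genes, but the interval of the SL2 share starts at 26.0%, below the upper ends of 37.1%, 33.0% and 40.8% for the first 3, and the differences were not tested. In both replicates the share was 8.08% for other snRNA genes, 12.9% for tRNA genes, 15.9% for snoRNA genes and 7.70% for genes of 60 to 150 bp, beside 44.4% for SL2 genes. That SL2 count was 8 genes at 300 bp and 4 at 100 bp, a distance at which the other classes were not counted. It includes sls-2.2 and sls-2.3, which share a replicate 2 region at rank 23342. The shares in both replicates were not tested. Among the 1000 highest pooled regions it was 4.04% for other snRNA genes, 4.41% for tRNA genes, 5.78% for snoRNA genes and 1.85% for genes of 60 to 150 bp, beside 22.2% for SL2 genes. Among the other snRNA, tRNA and snoRNA genes, taken by their annotated class, the highest region had a signal of 53.5 at rank 32, at a pair of tRNA genes on chromosome X (3035961 to 3036310). The highest at another snRNA gene was 49.5 at rank 41, at sup-6, and the highest at a snoRNA gene was 45.5 at rank 58, at Y53F4B.47. All of these were below the regions at sls-2.1 and sls-2.4.

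**Figure D4:**
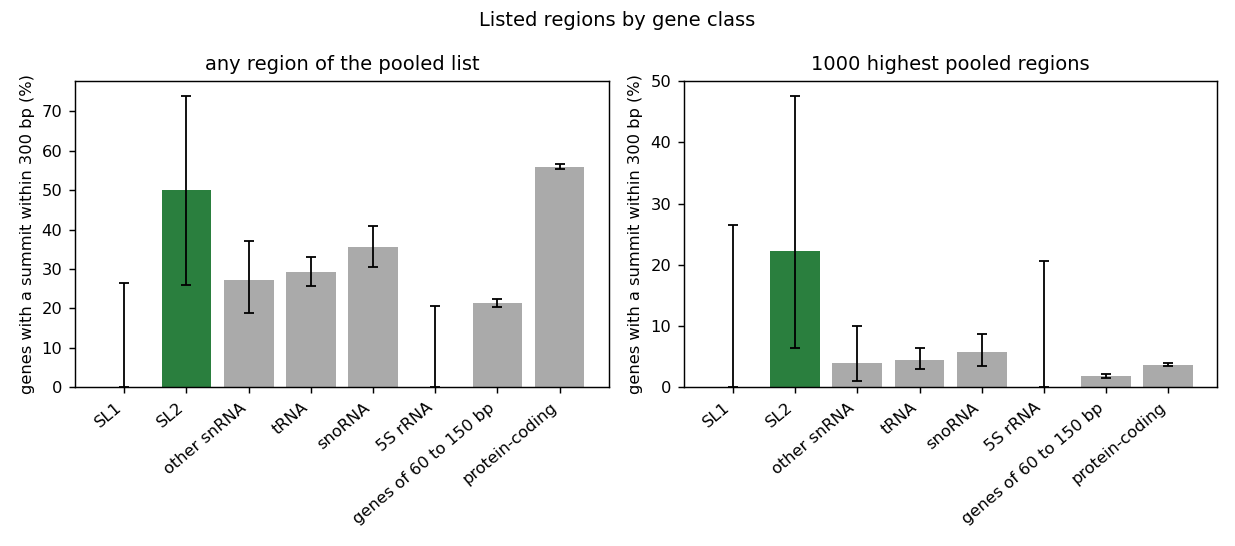
Percentage of genes with a summit within 300 bp, by gene class, for any region of the pooled list (left) and for its 1000 highest regions (right). Bars start at 0 and error bars are exact 95% binomial intervals over genes. They take genes as independent, which the copies of the SL1 array are not. SL2 genes are at 50% and 22.2%, SL1 and 5S rRNA genes at 0 in both panels.

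The proteins that act with spliced leader RNAs were examined by a list of 19 genes, of which 18 were annotated under the name used. It held the Sm protein genes snr-1 to snr-7, whose products form the ring on the small RNA, smn-1, whose product assembles that ring, sna-1, sna-2 and sut-1, whose products belong to spliced leader and related particles, and the snpc genes, for subunits of the complex known to start snRNA transcription. A pooled summit lay within 300 bp of the 5′ end of 4 of 18, against 19.6% of protein-coding genes. The signals were 22.8 at smn-1, 20.5 at sna-2, 18.8 at snr-2 and 16.4 at snr-1. Replicate 1 listed 3 of 18 (sna-2, snr-1 and smn-1), against 19.3%, and replicate 2 listed 5 of 18 (sna-2, snr-2, snr-4, snr-5 and snr-7), against 19.8%. Both replicates listed sna-2 alone, where 6.05% of protein-coding genes were listed in both. None of the 18 was among the 1000 highest pooled regions or the consensus peaks, against 1.34% and 0.240% of protein-coding genes. These shares were near the background.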

How the data were processed

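Per the deposited README texts, the authors made the pooled and replicate lists, with a control library, to feed the irreproducible discovery rate procedure, and derived the consensus from them. The deposited files are narrowPeak lists: column 7 is the signal of each region, and column 9 a score with no fixed scale, which was not used for any value here. Aligner, peak caller, threshold and treatment of multiply mapping reads are not stated in the sources used. The ce11 lists were read with the WBcel235 genome of RefSeq and the annotation of Ensembl release 115, in Python 3.11.15 with pandas 2.3.3, numpy 2.4.6, scipy 1.17.1 and Biopython 1.88. Ranks are by signal over nuclear regions, and ties are ordered by position. Distances run from summit to gene interval. The counting of summits at genes was checked on simulated regions. The members, the list of trans-splicing genes and the comparisons were chosen with earlier results of these data known. Every sls gene could be named, with full values for those among the 1000 highest regions of any list and those just inside or outside 300 bp, and others by range. Of other small RNA genes at most 3 per class, by highest signal, could be named, and of the trans-splicing list those with a pooled region. Beyond this rule, the full values of sls-2.8, sls-2.13 and sls-2.16 and the names snr-4, snr-5 and snr-7 were chosen after their values were seen. Other settings tried were the distance, the list, the number of highest regions, interval overlap, the RNA 5′ end and the word length. The replicates are 1 group with no number that pairs groups. The leader rule and the shared upstream words were chosen after the sequences were seen. Sequences of some members are not used here.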

Additional observations from a re-analysis of the deposited data

How the results depend on the processing

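Of 69 alternatives, 52 kept the result within 1.5 times a count, within the replicate spread of a median or within the interval of a share. The 17 that changed were all at SL2 genes. There the result was kept in 8 of 9 alternatives for a pooled region and 8 of 9 for the 1000 highest. It was kept in 2 of 7 for both replicates, 1 of 7 for the median signal, 5 of 6 for the summit position and 0 of 3 for repeated words. All alternatives for SL1 genes left 0 genes with a region and a median of 100% repeated words. The SL1 counts of 0 could not change, since the nearest summit in any list was 3604 bp from an SL1 gene. They are among the 52 alternatives that kept the result. At 1000 bp, 14 SL2 genes in place of 9 had a pooled region. The share of other genes is given at 300 bp only, so counts at 100, 200 and 1000 bp have no background beside them. SL2 genes listed in both replicates fell from 8 to 4 at 100 bp, and to 5 at 200 bp, from the RNA 5′ end and by interval overlap. With any summits of the replicates within 200 bp of each other it was also 5. The highest summits alone gave 4, and sls-2.2 was added by a lower replicate 1 region, with its summit 164 bp after the 5′ end. Against 4 SL2 genes among the 1000 highest pooled regions, the consensus held 2. The median highest signal, 20.9, was 32.7 at 100 and 200 bp, 24.6 at 1000 bp and 26.8 from the 5′ end, and with 1 replicate left out it was 9.82 to 13.7, on the scale of the other replicate's list. The median summit position was 48 bp after the 5′ end, and 45 to 186.5 bp with 1 replicate left out. The median share of repeated words at SL2 genes, 8.39%, was 11.7% with 21-base words, 4.25% with 51-base words and 17.0% in the gene alone. The cause was not tested. Alternatives for the median signal at SL1 genes gave no value, since no SL1 gene had a region. No paired analysis was possible because the samples form a single group. Depth is unknown, so no limit from reads can be given.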
